A study of Mus musculus with 8 samples.

Results

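The response of the parental V6.5 mouse embryonic stem (ES) cell line to 5 days without LIF is described here across all measured genes. It was read from the 4 of the series' 8 RNA-seq libraries that the labels place in this comparison, 2 with normal LIF and 2 with LIF withdrawn for 5 days. V6.5 is an ES line of mixed C57BL/6 and 129 background, and the labels give 2i medium on gelatin-coated plates for every group. They do not say whether the inhibitors of 2i stayed in the medium during the withdrawal, nor that replicates came from separate cultures. The p-values therefore rest only on how far libraries of a group lay apart, which may be technical. The other 4 libraries come from an Oct4-Fkbp fusion line treated for 24 h with DMSO or with dTag9, a compound that sends the tagged OCT4 protein to degradation. They share the statistical fit and serve in the last comparison only.

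LIF, a cytokine of the interleukin 6 family, binds LIFR and the shared subunit GP130 (Il6st) and activates JAK kinases and the transcription factor STAT3. In mouse ES cells STAT3 induces its own feedback inhibitor Socs3 and several genes of naive pluripotency. Cells deprived of LIF can leave the naive state, and cell shape, adhesion, matrix and metabolism are known to change in that exit. Whether cells leave it can depend on the medium, which the labels do not fully give for the withdrawal.

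The 4 libraries held 11308343 and 8323172 counted reads with LIF and 11417897 and 7238413 without it. Values are counts scaled to a common library size (CPM) by edgeR, and adjusted p-values are Benjamini-Hochberg values of edgeR's quasi-likelihood test over all 10311 tested genes, with calls at 0.05. Log2 fold changes give the level without LIF over that with LIF, with their standard error (SE). Reads that fell outside any feature made up 12.7% and 13.4% of uniquely aligned reads with LIF and 10.4% and 11.2% without it, so this share moved with the groups. Its part in the results was not tested. Reads were counted per transcript, which loses sequence shared by several transcripts of a gene. For genes with several accessions, reads in sequence that those accessions share can be missing, and 7990 such genes held 3.80% of counted reads. Where values of such a gene are given, so is its number of accessions.

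The labels were first checked against markers of the ES cell state. The 8 ES markers summed to 7292 and 7305 CPM with LIF and to 2256 and 2217 CPM without it. Every one of them had reads in the libraries. Zfp42, which encodes REX1 and marks naive cells, was at 472 and 453 CPM with LIF and 69.6 and 64.2 CPM without it. Tdgf1 and Utf1 went the other way, Utf1 from 56.1 and 54.0 to 236 and 231 CPM. The 5 markers of the formative epiblast summed to 32.7 and 33.9 CPM with LIF and to 403 and 407 CPM without it, nearly all of it Sox11 and Pou3f1. Without LIF, Sox11 was at 246 and 252 CPM and Pou3f1 at 145 and 140 CPM. Fgf5 (2 accessions) and Dnmt3b (9 accessions) rose to at most 7.64 CPM, and Otx2 (6 accessions) had 4 reads with LIF and 10 without. In bulk RNA, fewer cells of a type and less RNA per cell cannot be told apart, and this holds for every result below.

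LIF withdrawal moved a large part of the transcriptome, in both directions about equally. Of 10311 tested genes, 68.4% were called, 3509 (34.0%) higher and 3547 (34.4%) lower without LIF. At 2-fold or more, 1712 genes (16.6%) were higher and 1750 (17.0%) lower. In 8405 genes (81.5%) both libraries of a group lay beyond both of the other. The median log2 fold change over all tested genes was -0.02, a value that the scaling holds near 0. Every count of list members below is to be read against these shares.

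Rises reached larger factors than falls. At 8-fold or more, 621 called genes were higher and 446 lower, and at 32-fold or more 196 were higher and 90 lower. These counts hold genes with no read in a group at their lower bound, set by a floor of 3 reads over the group. With edgeR's fitted values in place of the bounds, 265 genes were higher and 132 lower at 32-fold or more. Genes that gained summed to 168616 CPM and genes that lost to 176455 CPM. Scaling to a common library size holds these sums near each other, so their balance is no result. The 100 genes that moved most held 33.5% of the gain and 32.8% of the loss.

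**Figure D1:**
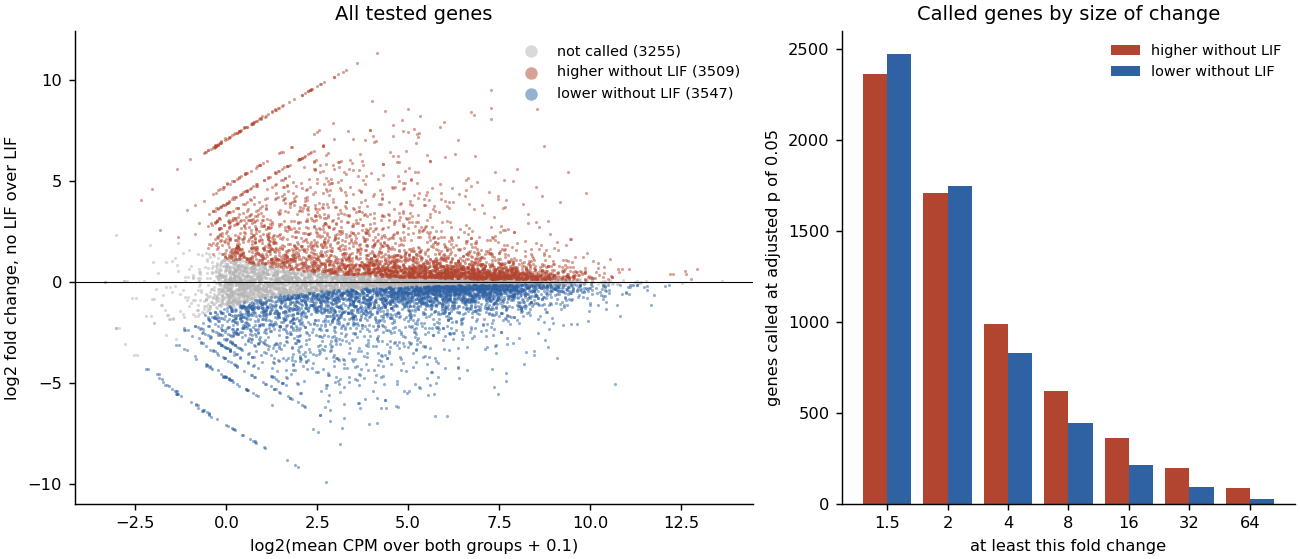
Left, each point is a tested gene, with log2(mean CPM over both groups + 0.1) on the horizontal axis and the fitted log2 fold change on the vertical axis; the diagonal rows of points at low CPM are genes with 0 or few reads in a group, whose fitted fold change depends on edgeR's prior count. Right, bars count genes called at an adjusted p of 0.05 by size of change, with genes at 0 reads in a group held at their lower bound. The bars show about equal numbers at 2-fold and more rises than falls at 8-fold (621 against 446) and above.

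By kind of gene, protein-coding genes made up 9816 of the tested genes, 3378 higher and 3383 lower. Long noncoding RNAs were 340, of which 99 rose and 117 fell. Of 16 tested small nucleolar RNAs none rose and 4 fell.

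The known STAT3 targets Socs3 and Bcl3 fell, and had the largest falls of their list. Of 30 genes of LIF reception and STAT3 signalling, 11 were tested, 3 rose and 5 fell. Socs3, the STAT3-induced inhibitor of GP130 signalling, was at 258 and 255 CPM with LIF and 27.1 and 28.9 CPM without it (log2 fold change -3.21 ± 0.07 SE, adjusted p = 3.94e-23). Bcl3, an IκB-family coregulator that STAT3 induces, was at 90.7 and 103 CPM with LIF and 4.10 and 4.64 CPM without it (log2 fold change -4.48 ± 0.12 SE, adjusted p = 3.08e-21). Both genes were low in both libraries without LIF. List members named for their adjusted p, here and below, had to have groups that do not overlap.

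The signal chain itself moved less. Il6st, the GP130 receptor subunit, was at 184 and 188 CPM with LIF and 109.8 and 106 CPM without it (log2 fold change -0.78 ± 0.06 SE, adjusted p = 2.55e-11). Jak1, the kinase it activates, gave 233 and 225 CPM with LIF and 218 and 227 CPM without it (log2 fold change -0.04 ± 0.06 SE, adjusted p = 0.496) and was not called. Socs7 fell from 102 and 100.1 to 68.4 and 73.6 CPM, while Pias1, an inhibitor of STAT proteins, rose from 62.1 and 69.2 to 105 and 109 CPM and the AP-1 gene Junb from 23.9 and 24.7 to 56.7 and 56.2 CPM. Stat3 held no read, and Lifr 14 reads with LIF and none without, but both have 3 accessions, so this says nothing of their expression. The list's summed level went from 1312 and 1299 CPM to 932 and 927 CPM.

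The promoter of Socs3 is shown because the palindrome TTCNNNGAA, the core of the STAT binding motif, was found there and in no other of the 9 tested list members that have an entry in the RefSeq promoter table (GRCm38.p6). The search covered the 250 bases before the gene start on both strands, and capitals mark the match.
Socs3, chr11:117969367-117969616, minus strand: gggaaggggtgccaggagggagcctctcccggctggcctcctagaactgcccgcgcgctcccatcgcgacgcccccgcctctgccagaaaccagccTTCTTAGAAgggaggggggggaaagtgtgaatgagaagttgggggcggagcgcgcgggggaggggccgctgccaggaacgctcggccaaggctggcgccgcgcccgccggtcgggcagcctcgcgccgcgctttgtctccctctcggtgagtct
The match begins 154 bases before the start. The same letters occur in 8.13% of all 27025 promoters of that length and in 6.43% of those of tested genes. A match is a description of letters and not of a bound site.

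More genes of actin filaments and contractility rose than fell, and several known from smooth muscle rose steeply. Of 40 tested members of 50 listed, 27 rose and 9 fell, against 34.0% and 34.4% of all tested genes, with a median log2 fold change of 0.81. The number that fell was 5 without WT no-LIF replicate 1. The list's sum over all its counted members, which needs no filter on low values, was 13124 and 12809 CPM with LIF and 18503 and 19174 CPM without it. This sum is given because a gene that passed the filter only through its level without LIF had to differ. The same holds for genes of every list below.

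Tagln, the actin-bundling transgelin, was at 2.12 and 1.76 CPM with LIF and 763 and 725 CPM without it (log2 fold change 8.55 ± 0.12 SE, adjusted p = 3.71e-27). Acta2, smooth muscle actin, went from 0.530 and 0.471 to 128 and 125 CPM (log2 fold change 7.94 ± 0.19 SE, adjusted p = 1.14e-22). Cnn1, the actin-binding calponin 1, went from 0.353 and 0 to 55.4 and 56.9 CPM (log2 fold change 8.03 ± 0.26 SE, adjusted p = 1.55e-19). These genes were near 0 in both libraries with LIF and high in both without it. Myl9, a regulatory light chain of myosin, showed the same order, from 0.706 and 0.118 to 75.4 and 81.3 CPM. Pdlim3, a PDZ and LIM protein of the Z line, was among the 12 largest rises of all genes with 0.353 and 0.235 CPM with LIF and 60.1 and 54.1 CPM without it.

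Other members were well covered in both groups and rose by smaller factors. Vcl, vinculin of focal adhesions, was at 251 and 247 CPM with LIF and 759 and 820.0 CPM without it (log2 fold change 1.66 ± 0.05 SE, adjusted p = 1.55e-19). Cnn2, calponin 2, went from 30.0 and 27.3 to 394 and 363 CPM and Tpm4, a tropomyosin, from 218 and 228 to 885 and 849.9 CPM. Pdlim7, an adaptor of actin with 4 accessions, went from 9.36 and 9.29 to 123 and 128 CPM. Dstn, the actin-severing destrin, had a log2 fold change of 1.43 and was among the 12 largest gains in CPM of all genes. Actb, beta-actin, and Myh9, a non-muscle myosin heavy chain, rose by 0.38 and 0.62 on the log2 scale, yet belonged to the same 12.

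Targets of the mechanically regulated factors YAP and SRF, and genes of the Hippo pathway, rose in 19 of 22 tested cases and fell in 1, with a median of 1.80. Their summed level was 743 and 749 CPM with LIF and 2335 and 2489 CPM without it, a ratio of 3.23. Ccn1, a matrix-associated YAP target, was at 73.5 and 71.5 CPM with LIF and 386 and 425 CPM without it (log2 fold change 2.48 ± 0.07 SE, adjusted p = 3.07e-21). Amotl2 went from 161 and 143 to 559 and 605 CPM and Amot, which encodes angiomotin and has 2 accessions, from 3.53 and 2.12 to 210.4 and 241 CPM (log2 fold change 6.26 ± 0.14 SE, adjusted p = 2.62e-23); both bind YAP. Lats2, the kinase that restrains YAP (2 accessions), went from 6.36 and 6.59 to 60.8 and 62.5 CPM. All 4 genes were higher in both libraries without LIF.

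Srf itself, the serum response factor, was at 73.7 and 71.8 CPM with LIF and 218 and 203 CPM without it (log2 fold change 1.53 ± 0.07 SE, adjusted p = 1.12e-16). Nt5e, the ecto-nucleotidase CD73, Vgll3, a TEAD cofactor, and F3, tissue factor, had log2 fold changes of 4.38, 4.34 and 2.88. The factor that fell was Tead4 with 6.62 and 5.53 CPM with LIF and 1.96 and 2.45 CPM without it (2 accessions), named here after its value had been seen.

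Promoters of members that moved together are shown for the motifs of the factors that name the lists. The CArG box, which SRF binds, was searched on both strands in the 250 bases before each gene start and is in capitals in the first 4 sequences. GGAATG, the core of the TEAD motif through which YAP acts, is in capitals in the last 2, where CATTCC is its other strand. Matches to the other motif were left in lower case, and no match shown overlaps another. Sequences are from the RefSeq table of GRCm38.p6.
Myl9, chr2:156775214-156775463, plus strand: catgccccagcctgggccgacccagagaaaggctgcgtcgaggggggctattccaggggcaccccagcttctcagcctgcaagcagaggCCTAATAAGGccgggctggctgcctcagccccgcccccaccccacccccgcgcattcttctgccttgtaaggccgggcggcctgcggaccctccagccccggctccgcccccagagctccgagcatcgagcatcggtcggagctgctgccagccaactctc
Cnn2, chr10:79988350-79988599, plus strand: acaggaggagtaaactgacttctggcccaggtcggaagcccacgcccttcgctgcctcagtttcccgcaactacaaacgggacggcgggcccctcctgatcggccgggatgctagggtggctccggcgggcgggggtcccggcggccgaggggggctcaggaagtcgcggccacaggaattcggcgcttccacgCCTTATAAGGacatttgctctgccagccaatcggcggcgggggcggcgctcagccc
Vcl, chr14:20929148-20929397, plus strand: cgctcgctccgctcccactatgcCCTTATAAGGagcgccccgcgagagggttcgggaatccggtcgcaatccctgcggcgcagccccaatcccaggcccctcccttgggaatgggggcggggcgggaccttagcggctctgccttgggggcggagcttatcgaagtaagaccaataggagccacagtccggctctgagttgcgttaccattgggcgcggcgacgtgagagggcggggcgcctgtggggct
Srf, chr17:46556163-46556412, minus strand: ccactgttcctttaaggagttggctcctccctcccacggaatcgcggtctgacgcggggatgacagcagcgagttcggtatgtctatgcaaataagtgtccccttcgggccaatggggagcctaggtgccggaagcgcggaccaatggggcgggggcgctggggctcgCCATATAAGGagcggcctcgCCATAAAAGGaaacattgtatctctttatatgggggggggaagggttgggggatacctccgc
Ccn1, chr3:145649986-145650235, minus strand: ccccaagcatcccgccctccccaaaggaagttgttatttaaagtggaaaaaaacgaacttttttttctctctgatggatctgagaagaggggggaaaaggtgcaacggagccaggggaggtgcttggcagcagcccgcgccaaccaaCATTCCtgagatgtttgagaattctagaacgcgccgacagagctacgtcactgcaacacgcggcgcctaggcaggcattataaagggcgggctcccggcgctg
Amotl2, chr9:102717554-102717803, plus strand: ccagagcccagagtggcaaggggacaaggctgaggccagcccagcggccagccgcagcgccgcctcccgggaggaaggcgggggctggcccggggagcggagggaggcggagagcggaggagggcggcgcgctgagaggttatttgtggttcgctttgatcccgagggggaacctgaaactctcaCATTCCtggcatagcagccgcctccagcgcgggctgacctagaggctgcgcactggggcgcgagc
A CArG box was in 7 of 36 promoters of tested actin genes (19.4%), in 1 of 17 of the YAP and SRF list, and in 1.62% of all promoters of that length. GGAATG was in 8 of 17 promoters of the YAP and SRF list (47.1%), in 9 of 36 of the actin list (25.0%) and in 14.4% of all. Among the 444 genes at least 8-fold higher that have an entry, the shares were 2.25% and 15.1%. Both lists were compiled from known targets, so the letters are no independent finding, and absence of a match says only that the letters are not in this window.

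**Figure D2:**
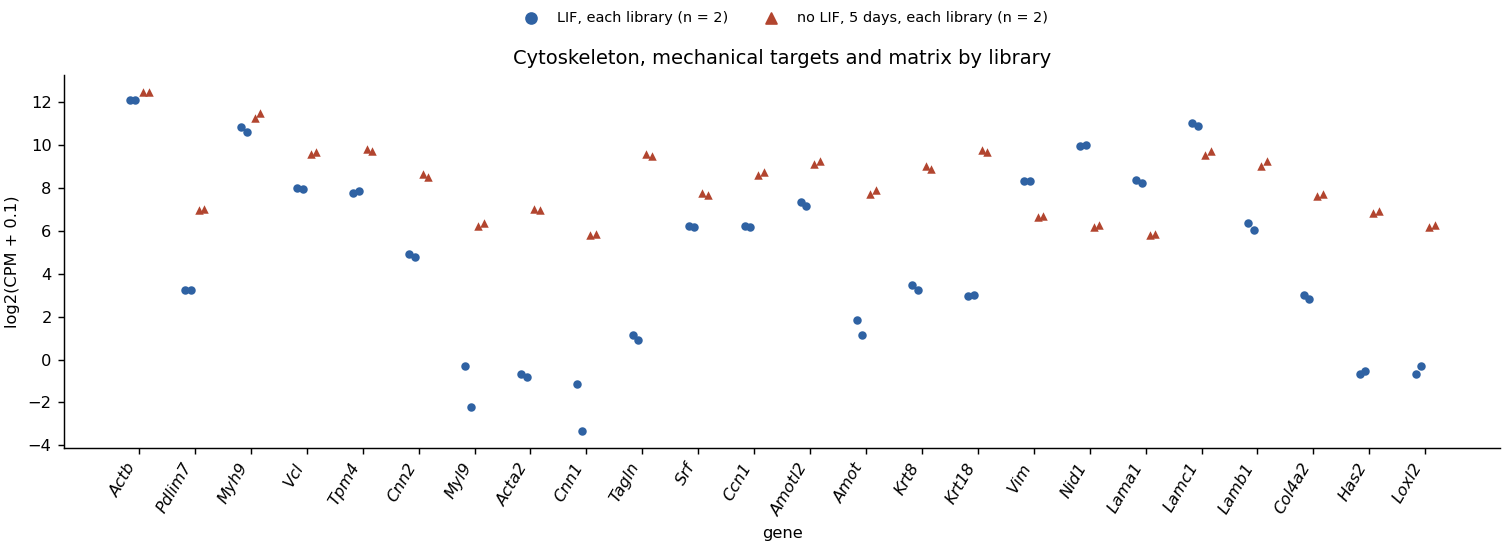
Each point is 1 library, as log2(CPM + 0.1), for 24 genes of the cytoskeleton, of YAP and SRF targets and of the matrix; circles are the 2 libraries with LIF and triangles the 2 without. In every gene drawn the groups do not overlap, which the rule for naming list members required. Tagln goes from 2.12 and 1.76 to 763 and 725 CPM, while Vim, Nid1, Lama1 and Lamc1 go down.

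The intermediate filaments changed in kind. Of 19 tested members 13 rose and 2 fell, and the summed level went from 2761 and 2651 CPM to 4388 and 4538 CPM. The 2 that fell were Vim and the keratin Krt42. Vim, the vimentin of mesenchymal cells, was at 324 and 319 CPM with LIF and 100.1 and 103 CPM without it (log2 fold change -1.67 ± 0.06 SE, adjusted p = 5.34e-19). Krt42 was at 53.3 and 46.8 CPM with LIF and 1.37 and 1.64 CPM without it (log2 fold change -5.08 ± 0.18 SE, adjusted p = 4.68e-19).

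Keratins of simple epithelia went up. Krt8 was at 10.9 and 9.29 CPM with LIF and 521 and 477 CPM without it (log2 fold change 5.62 ± 0.09 SE, adjusted p = 5.21e-26), and Krt18, its partner in the filament, at 7.68 and 8.0 CPM with LIF and 878 and 823 CPM without it (log2 fold change 6.76 ± 0.08 SE, adjusted p = 4.95e-28). Krt7 went from 2.03 and 1.06 to 73.7 and 69.1 CPM and Krt19 (2 accessions) from 0.265 and 0.235 to 17.2 and 15.7 CPM. The neuronal filament genes Ina and Nefl rose too, with log2 fold changes of 2.73 and 1.52. The keratins counted in this list, grouped by symbol after their values had been seen, summed to 74.2 and 65.4 CPM with LIF and 1499 and 1396 CPM without it.

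Among 22 tested tubulin and microtubule genes 11 rose and 5 fell, with a median of 0.34. Tuba1a, an alpha-tubulin of neurons and progenitors, was at 72.1 and 73.2 CPM with LIF and 432 and 382 CPM without it (log2 fold change 2.49 ± 0.07 SE, adjusted p = 4.36e-21), and Tubb6 went from 109.7 and 104 to 377 and 342 CPM. Tubb2b, a beta-tubulin, went down from 295 and 318 to 84.6 and 83.2 CPM. Tubb5, another beta-tubulin, rose from 4003 and 4103 to 5429.5 and 5204 CPM, the kinesin Kif5c by 2.15 and the microtubule-associated Map1b by 0.91 on the log2 scale. Taken by symbol, 4 of 11 tubulins rose and 4 fell.

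Matrix genes moved in both directions. Several basement membrane genes were lower without LIF. Most tested collagens were higher, among them Col4a2, which is itself a basement membrane gene. Of 36 tested matrix proteins 25 rose and 9 fell, and the median log2 fold change was 1.09, but the summed level went from 7155 and 6597 CPM with LIF to 5339.8 and 5958 CPM without it, so the median and the sum differ in sign. In all 36 the groups did not overlap, against 81.5% of all tested genes.

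Among those that fell were several genes of the basement membrane. Nid1, the nidogen that links laminin to collagen IV, was at 999 and 1035 CPM with LIF and 72.1 and 76.8 CPM without it (log2 fold change -3.78 ± 0.06 SE, adjusted p = 7.32e-26). Lamc1, a laminin gamma chain, went from 2097 and 1909.8 to 744 and 848 CPM (log2 fold change -1.33 ± 0.06 SE, adjusted p = 1.28e-16). Lama1, an alpha chain of the early embryo, went from 335 and 296 to 54.9 and 58.2 CPM and Lamb2 from 227 and 205 to 39.6 and 40.8 CPM. Fn1, fibronectin (7 accessions), went from 163 and 152 to 22.2 and 21.7 CPM. All were lower in both libraries without LIF.

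Among those that rose were another laminin chain and collagens. Lamb1, a laminin beta chain, was at 81.3 and 65.5 CPM with LIF and 519 and 601 CPM without it (log2 fold change 2.92 ± 0.08 SE, adjusted p = 7.30e-21). Col4a2, a collagen IV chain, was at 7.95 and 6.94 CPM with LIF and 198 and 212 CPM without it (log2 fold change 4.77 ± 0.11 SE, adjusted p = 5.92e-23). Spon1, the secreted F-spondin, went from 0.177 and 0.235 to 30.0 and 34.2 CPM. Collagens, grouped by symbol after the values had been seen, were higher in 12 of 13 tested cases and lower in none. They summed to 75.7 and 65.5 CPM with LIF and 329 and 355 CPM without it, and the 6 laminin genes to 3200.2 and 2856 CPM with LIF and 2200.1 and 2491 CPM without it, with 2 higher and 3 lower.

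Enzymes that build or cut matrix, and their inhibitors, rose in 16 of 25 tested cases and fell in 5, with a median of 2.09. Has2, which makes hyaluronan, was at 0.530 and 0.588 CPM with LIF and 115 and 119.9 CPM without it (log2 fold change 7.69 ± 0.18 SE, adjusted p = 1.99e-22). Loxl2, a collagen crosslinker, went from 0.530 and 0.706 to 72.0 and 76.4 CPM and the gelatinase Mmp2 from 2.03 and 1.76 to 56.4 and 58.8 CPM. Timp3, an inhibitor of such proteases, had a log2 fold change of 5.28, the protease inhibitor Serpine2 3.75 and the urokinase receptor Plaur 3.26. The lysosomal protease Ctsb fell from 390.3 and 396 to 160.2 and 145 CPM. The summed level, unlike the median, was lower without LIF: it went from 3152 and 3005 CPM with LIF to 2729 and 2712 CPM without it.

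Receptors for matrix and their partners inside the cell were tested in 14 of 28 cases, with 7 higher and 3 lower. Itgb1, the common integrin beta chain, was at 835 and 804 CPM with LIF and 1525 and 1627 CPM without it (log2 fold change 0.94 ± 0.05 SE, adjusted p = 7.07e-15). Parva, the actin-binding parvin of integrin complexes, went from 5.91 and 4.59 to 87.9 and 93.3 CPM and Itga1 from 2.21 and 1.06 to 9.65 and 11.9 CPM. Itgav, Tns3 and the collagen receptor Ddr2 were the 3 that fell, with log2 fold changes of -0.55, -1.49 and -3.39.

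Genes of adhesion between cells moved in both directions, while E-cadherin was not called. Of 28 tested members 17 rose and 5 fell, with a median of 0.69. Cdh1, E-cadherin, was at 2536 and 2448 CPM with LIF and 2408 and 2672 CPM without it (log2 fold change 0.03 ± 0.05 SE, adjusted p = 0.666) and was not called. Gja1, connexin 43, was at 66.4 and 73.3 CPM with LIF and 1079.8 and 1078 CPM without it (log2 fold change 3.95 ± 0.06 SE, adjusted p = 5.21e-26). Gjb5, connexin 31.1, went down from 114 and 108 to 15.6 and 19.8 CPM.

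Cldn6, a claudin of early epithelia, went from 28.3 and 28.6 to 363 and 358 CPM and Epcam, an epithelial adhesion molecule, from 175 and 178 to 646 and 620.1 CPM. Pkp2, a plakophilin of desmosomes, went from 58.0 and 60.6 to 276 and 253 CPM. Cd24a rose by 2.30 on the log2 scale. The tetraspanin Cd9 went down from 1132 and 1160.0 to 277 and 261 CPM and Icam1 from 117 and 101 to 14.6 and 15 CPM. Jam2, a junctional adhesion molecule, was among the 12 steepest falls of all genes, at 327 and 363 CPM with LIF and 7.09 and 7.50 CPM without it (log2 fold change -5.57 ± 0.09 SE, adjusted p = 1.31e-25).

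In signalling through FGF and other receptor tyrosine kinases, feedback inhibitors of ERK rose. Of 30 tested members 20 rose and 9 fell, with a median of 1.37. Dusp6, an ERK phosphatase, was at 8.21 and 6.47 CPM with LIF and 327 and 333 CPM without it (log2 fold change 5.47 ± 0.10 SE, adjusted p = 5.11e-25). Spry4, a Sprouty inhibitor, went from 1.85 and 1.88 to 62.6 and 69.1 CPM and the phosphatase Dusp4 from 4.59 and 4.59 to 63.0 and 65.2 CPM. All were low in both libraries with LIF. MEK inhibition is part of 2i, and whether it was kept is not given, so the medium and LIF cannot be told apart as the source of this rise.

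Ligands and receptors moved in both directions. Fgf4, the autocrine FGF of naive cells, was at 773 and 801 CPM with LIF and 158 and 155 CPM without it (log2 fold change -2.33 ± 0.06 SE, adjusted p = 3.89e-22). The Eph receptor Epha4 went from 391 and 399 to 16 and 18.4 CPM (log2 fold change -4.54 ± 0.08 SE, adjusted p = 1.63e-25), and the ephrin Efnb2 from 7.68 and 6.94 to 228 and 233 CPM (log2 fold change 4.97 ± 0.10 SE, adjusted p = 7.46e-24). Igf1r, the IGF1 receptor, went from 51.1 and 44.1 to 303 and 351 CPM and Flt1, a VEGF receptor, from 0.706 and 0.471 to 45.4 and 48.8 CPM. In all 5 genes the groups did not overlap, as the rule for naming list members required.

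In the TGF-beta family 16 of 27 tested members rose and 9 fell, with a median of 0.73. Nodal went from 82.7 and 82.2 to 195 and 181 CPM. Its secreted inhibitors went apart: Lefty1 was at 18.8 and 20.9 CPM with LIF and 347 and 324 CPM without it (log2 fold change 4.09 ± 0.09 SE, adjusted p = 5.05e-23) and Lefty2 at 408 and 398 CPM with LIF and 107 and 109.9 CPM without it (log2 fold change -1.90 ± 0.07 SE, adjusted p = 2.84e-18). Id2, a BMP-induced inhibitor of differentiation, rose from 6.62 and 6.23 to 54.0 and 58.5 CPM, and its relative Id3 from 1.06 and 2.12 to 24.6 and 23.5 CPM. Bmp8b, a BMP ligand, Fstl1, a secreted binding protein, and the inhibitory Smad7 had log2 fold changes of 4.64, 1.37 and 0.90.

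Wnt genes rose in 16 of 27 tested cases and fell in 7, with a median of 1.49. Wnt3, a ligand of the primitive streak, went from 0.441 and 0.471 to 25.2 and 27.8 CPM. The receptor Fzd7 went from 38.8 and 41.5 to 273 and 264 CPM and Fzd2 from 13.9 and 13.6 to 112 and 103 CPM. Lgr4, a receptor for R-spondins, which strengthen Wnt signals, went from 153 and 170.3 to 503 and 495 CPM. The secreted inhibitor Sfrp1 was at 642 and 662 CPM with LIF and 112 and 117 CPM without it (log2 fold change -2.52 ± 0.06 SE, adjusted p = 2.83e-22), and was lower in both libraries without LIF. Its relative Sfrp2 rose from 1.59 and 1.41 to 37.9 and 33.0 CPM. Ror2, a receptor for noncanonical Wnts, and Notum, an enzyme that inactivates Wnts, fell with log2 fold changes of -2.55 and -3.51.

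Notch receptors moved in opposite directions. Of 17 tested Notch genes 7 rose and 5 fell, and the median was 0.13. Notch3 was at 160.4 and 149.7 CPM with LIF and 771 and 827 CPM without it (log2 fold change 2.36 ± 0.06 SE, adjusted p = 5.06e-22), and Notch2 went from 114 and 99.0 to 209.9 and 252 CPM. Notch1 went down from 234 and 204 to 82.6 and 93.8 CPM, as did its ligand Jag1 from 75.9 and 74.3 to 30.6 and 35.3 CPM. Maml1, a Notch coactivator, Dll3, a ligand-like inhibitor, and the modifiers Dtx1 and Rfng had log2 fold changes of 1.31, 2.46, -1.22 and -1.39.

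In the retinoid and hedgehog list 9 of 17 tested members rose and 6 fell. The hedgehog transducer Smo went from 42.5 and 47.6 to 165 and 167 CPM. Of its effectors, Gli3 rose from 38.5 and 36.2 to 145 and 165 CPM and Gli2 fell from 151 and 151 to 59.3 and 57.7 CPM. In the retinoid branch, Aldh1a2, which makes retinoic acid, fell from 12.2 and 10.8 to 1.20 and 0.954 CPM, while Rdh10, which makes its precursor, and the binding protein Crabp2 rose by 1.86 and 1.84 on the log2 scale. The receptor Rarg (2 accessions) rose by 2.00.

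**Figure D3:**
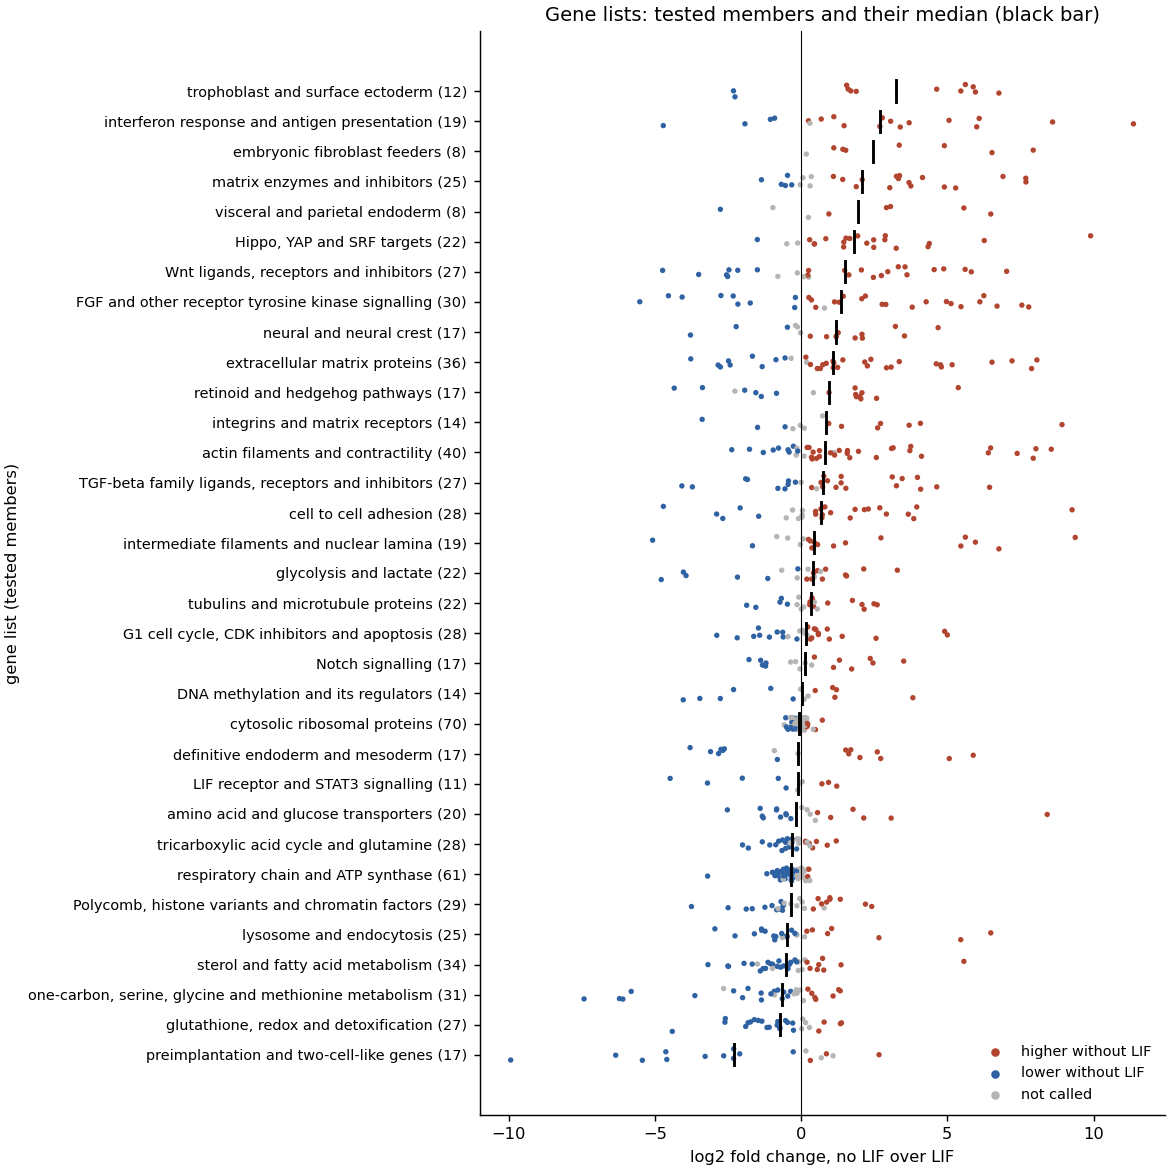
Each point is a tested member of a gene list, with its fitted log2 fold change on the horizontal axis; colours mark calls at an adjusted p of 0.05, the black bar is the list's median and the number of tested members follows each name. The lists run from a median of -2.31 (preimplantation genes) to 3.26 (trophoblast and surface ectoderm), and the 70 ribosomal protein genes lie close to 0; the list of 4 tested endothelial and blood genes is not drawn, and points beyond a log2 fold change of 9 have 0 reads in a group.

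Summed over all counted members, tested or not, the level without LIF over that with LIF was 3.23 for YAP and SRF targets, 1.71 for Notch genes, 1.61 for retinoid and hedgehog genes, 1.44 for the TGF-beta family and 1.12 for both the FGF and the Wnt lists. It was 1.34 for tubulins and microtubule proteins, 1.32 for integrins and matrix receptors, and 1.26 for cell adhesion. Of the lists that follow, glycolysis had 1.32, the tricarboxylic acid cycle 0.794, DNA methylation 0.743, Polycomb genes 1.07, G1 and apoptosis 1.41, ribosomal proteins 0.924, lysosomes 0.925 and transporters 1.23. These ratios weigh each gene by its CPM, and members with many reads dominate them.

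Genes of glucose uptake rose, and of the glycolytic enzymes some rose and some fell. Of 22 tested glycolysis genes 11 rose and 6 fell, with a median of 0.39. Slc2a1, the glucose transporter GLUT1, was at 259 and 267 CPM with LIF and 1179 and 1137 CPM without it (log2 fold change 2.14 ± 0.06 SE, adjusted p = 1.52e-21), and Slc2a3, GLUT3, went from 4913 and 5150.4 to 7185 and 7648 CPM. Hk2, hexokinase 2, which traps glucose in the cell, was at 1730.0 and 1559 CPM with LIF and 688 and 804 CPM without it (log2 fold change -1.14 ± 0.06 SE, adjusted p = 1.34e-14). The later enzyme Tpi1 rose from 571 and 538 to 926 and 908 CPM and Pgk1 from 250.01 and 221 to 419 and 424 CPM. Gapdh, between them in the pathway, has 2 accessions and at most 0.823 CPM, and so cannot be read here, although it was called lower (named after its value had been seen).

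Other members of the list had larger fold changes. Bnip3 and Egln3, both known to respond to hypoxia, rose by 1.55 and 1.52 on the log2 scale. Fbp2, fructose bisphosphatase, fell from 26.9 and 25.9 to 0.939 and 0.954 CPM and Pfkp, a phosphofructokinase (2 accessions), from 38.0 and 32.7 to 2.39 and 2.18 CPM.

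Most tested genes of the respiratory chain fell, by small factors. Of 61 tested subunits 40 fell, against 34.4% of all tested genes, and 2 rose, with a median of -0.35. The summed level went from 15829 and 14888 CPM with LIF to 11183 and 10568 CPM without it, a ratio of 0.708. The 2 that rose, named after their values had been seen, were Uqcrh (0.22 ± 0.06 SE, adjusted p = 0.00268) and Sdhd (0.26 ± 0.06 SE, adjusted p = 2.23e-04). The number that rose was 5 without WT LIF replicate 2 and 1 without WT no-LIF replicate 1.

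Falls were called in every complex, grouped by symbol after the values had been seen. Complex I had 17 lower of 27 tested, complex III 7 of 9, complex IV 8 of 10 and the ATP synthase 6 of 11. Of these 4, complex IV had the lowest ratio of summed levels, 0.602, from 2066 and 1998 CPM with LIF to 1248 and 1196 CPM without it. Cox5a, a subunit of complex IV, was at 475 and 469 CPM with LIF and 216 and 202 CPM without it (log2 fold change -1.17 ± 0.05 SE, adjusted p = 2.28e-16), and Cox7a1, a subunit known from muscle, went from 27.7 and 26.2 to 3.50 and 2.05 CPM. Atp5b, the catalytic beta subunit of the ATP synthase, was at 4398 and 4058 CPM with LIF and 2770.3 and 2590.3 CPM without it (log2 fold change -0.66 ± 0.05 SE, adjusted p = 2.22e-11).

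The tricarboxylic acid cycle and its feeders fell in 15 of 28 tested cases and rose in 7, with a median of -0.32. Idh2, the mitochondrial NADP-dependent isocitrate dehydrogenase, was at 721 and 655 CPM with LIF and 177 and 165 CPM without it (log2 fold change -2.01 ± 0.06 SE, adjusted p = 1.72e-20). Citrate synthase, Cs, went from 800.4 and 807 to 458 and 485 CPM. Pck2, which makes phosphoenolpyruvate in mitochondria, went from 337 and 290.1 to 89.0 and 90.5 CPM.

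Glutamine genes went apart. Slc1a5, a glutamine transporter, fell from 364 and 382 to 151 and 145 CPM. Glul, which makes glutamine, rose from 144 and 145 to 333 and 331 CPM.

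In the metabolism of threonine, glycine, serine and methionine, enzymes of several steps fell. Of 31 tested members of this list 17 fell and 7 rose, with a median of -0.65, while the summed level hardly moved, from 5535 and 5399 CPM to 5325 and 5292 CPM. Tdh, threonine dehydrogenase, on which mouse ES cells are known to depend, was at 655 and 645 CPM with LIF and 54.1 and 49.9 CPM without it (log2 fold change -3.64 ± 0.06 SE, adjusted p = 2.85e-25). Dmgdh, which demethylates dimethylglycine, went from 54.8 and 48.3 to 0.512 and 0.954 CPM, and Bhmt2, a homocysteine methyltransferase, from 27.9 and 26.7 to 0.341 and 0.682 CPM. Amt, of the glycine cleavage system, and Cth, which makes cysteine, fell by 1.36 and 1.37 on the log2 scale.

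Other enzymes of the same pathways rose. Gldc, the glycine decarboxylase of the same cleavage system as Amt, was at 268 and 281 CPM with LIF and 651 and 683 CPM without it (log2 fold change 1.28 ± 0.05 SE, adjusted p = 2.34e-17). Mat2a, which makes S-adenosylmethionine, went from 266 and 285 to 568 and 605 CPM and Odc1, the first enzyme of polyamine synthesis, from 252 and 235 to 648 and 581 CPM. Asns, asparagine synthetase, which is in no list, fell from 2703 and 2852 to 890.0 and 849.9 CPM and was among the 12 largest losses in CPM.

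**Figure D4:**
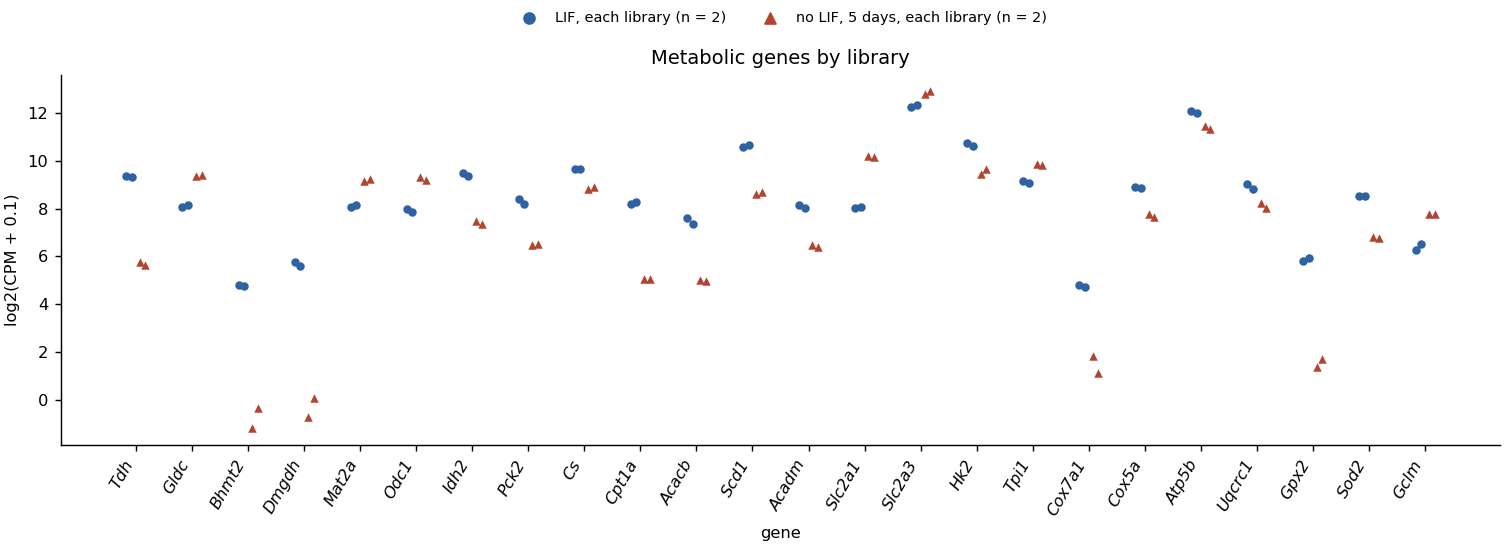
Each point is 1 library, as log2(CPM + 0.1), for 24 metabolic genes; circles are the 2 libraries with LIF and triangles the 2 without. The groups do not overlap in any gene drawn, which the rule for naming list members required. The steepest falls are in Dmgdh and Bhmt2, and rises are in Gldc, Mat2a, Odc1, Slc2a1, Slc2a3, Tpi1 and Gclm.

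More lipid genes fell than rose, among them enzymes of synthesis and of oxidation. Of 34 tested members 20 fell and 8 rose, with a median of -0.53, and the summed level went from 15179 and 15246 CPM with LIF to 9936 and 10233 CPM without it. The desaturase Scd1 was at 1505 and 1623 CPM with LIF and 395 and 413 CPM without it (log2 fold change -1.95 ± 0.05 SE, adjusted p = 5.37e-21) and Scd2 went from 4419 and 4509.7 to 1985 and 2081 CPM. Cpt1a, which admits fatty acids to mitochondria, was at 290.3 and 310.1 CPM with LIF and 32.7 and 33.1 CPM without it (log2 fold change -3.19 ± 0.07 SE, adjusted p = 3.17e-23). Acacb, which makes the inhibitor of that step, went from 194 and 161 to 32.6 and 30.8 CPM, and the oxidation enzyme Acadm from 288 and 259.6 to 88.1 and 82.9 CPM. Insig1, Fads1 and Fabp3 had log2 fold changes of -1.22, -1.05 and -1.40.

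Genes of glutathione, redox and detoxification fell in 19 of 27 tested cases and rose in 4, with a median of -0.73. Their summed level went from 7610.4 and 7694 CPM with LIF to 5357 and 5133 CPM without it. Gpx2, a glutathione peroxidase, was at 55.7 and 61.4 CPM with LIF and 2.48 and 3.14 CPM without it (log2 fold change -4.41 ± 0.14 SE, adjusted p = 5.07e-20). Nqo1, a quinone reductase, went from 235 and 270.0 to 68.9 and 66.1 CPM. Sod2, the mitochondrial superoxide dismutase, went from 364 and 370.3 to 112 and 109 CPM and the metallothionein Mt2 from 586 and 607 to 171 and 168 CPM. Gclm, a subunit of the enzyme that starts glutathione synthesis, rose from 76.7 and 92.5 to 221 and 217 CPM.

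Regulators of DNA methylation held both directions. Of 14 tested members 5 rose and 6 fell, with a median of 0.04. Prdm14, which keeps methylation low in naive cells, was at 106 and 108 CPM with LIF and 6.49 and 6.55 CPM without it (log2 fold change -4.03 ± 0.11 SE, adjusted p = 2.00e-21). Tet1, a dioxygenase of methylcytosine, went from 1404 and 1333 to 626 and 706 CPM and Dppa3, which protects the maternal genome from demethylation, from 182 and 173 to 36.5 and 34.6 CPM. Zfp57, which guards imprints (4 accessions), went from 59.7 and 74.6 to 10.1 and 9.41 CPM. Gadd45a and Gadd45b rose by 1.08 and 1.21 on the log2 scale.

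Among 29 tested Polycomb and chromatin genes 9 rose and 12 fell, with a median of -0.36. Bmi1, of Polycomb complex 1, was at 50.5 and 56.0 CPM with LIF and 22.1 and 22.9 CPM without it (log2 fold change -1.24 ± 0.10 SE, adjusted p = 9.68e-12), while Pcgf5, a paralogue of Bmi1, rose from 11.6 and 10.6 to 59.6 and 59.0 CPM. In Polycomb complex 2, Eed and the accessory Epop fell by 0.69 and 1.0, and the accessory Phf19 rose by 2.20 on the log2 scale. H3f3b, which encodes histone H3.3, and Hmgb2 rose by 0.98 and 0.98.

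Of 28 tested genes of G1 and apoptosis 13 rose and 10 fell; the number that fell was 6 without WT LIF replicate 1. Both named D cyclins rose. Ccnd2 was at 2.12 and 0.941 CPM with LIF and 50.8 and 53.3 CPM without it (log2 fold change 5.00 ± 0.18 SE, adjusted p = 1.65e-18), and Ccnd1 at 184 and 184 CPM with LIF and 489.9 and 483 CPM without it (log2 fold change 1.40 ± 0.05 SE, adjusted p = 3.47e-18). Pmaip1, the pro-apoptotic NOXA, went from 56.3 and 60.3 to 344 and 343 CPM, and the anti-apoptotic Bcl2 (2 accessions) from 0.618 and 0.235 to 13.4 and 14.7 CPM. Cdkn2a (2 accessions) fell by 1.46, and Ccne1 and Cdk6 rose by 0.45 and 0.59 on the log2 scale.

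Fewer cytosolic ribosomal protein genes were called than the share of all genes. Of 70 tested members 7 rose and 17 fell, 34.3% called against 68.4% of all tested genes, with a median of -0.09. The number that rose was 11 without WT LIF replicate 2 and 4 without WT no-LIF replicate 1, and the number that fell was 9 without WT no-LIF replicate 2. Rpl13a was at 1847 and 1640.2 CPM with LIF and 1227 and 1190.1 CPM without it (log2 fold change -0.53 ± 0.05 SE, adjusted p = 2.74e-09), the smallest adjusted p of the list. Rps18 (-0.32 ± 0.08 SE, adjusted p = 6.51e-04) and Rpl13 (-0.26 ± 0.07 SE, adjusted p = 0.00130) lost their calls when a single library was left out. Many ribosomal protein genes have processed copies in the genome, so reads may be divided among them.

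Most tested interferon-related genes rose. Of 19 tested members of 36 listed 14 rose and 4 fell. In all 19 the groups did not overlap, against 81.5% of all tested genes. Gbp2, an interferon-induced GTPase, had 3 reads with LIF and 1207 without. Such a gene passed the filter only through its level without LIF, so its groups had to separate. Ddx58, the RNA sensor RIG-I, went from 21.5 and 20.4 to 58.6 and 57.1 CPM and the peptide transporter gene Tap2 from 0.971 and 1.29 to 12.6 and 10.6 CPM. The 4 that fell were Stat2, which transmits interferon signals, the antiviral membrane proteins Ifitm3 and Ifitm2, and Oas1a, which makes an antiviral messenger. Stat2 went from 143 and 135 to 35.7 and 37.9 CPM and Oas1a from 18.4 and 21.2 to 0.768 and 0.682 CPM. Ifitm3 went from 202 and 243 to 106 and 108 CPM and Ifitm2 from 205 and 248 to 119 and 122 CPM. The summed level went from 748 and 808 CPM with LIF to 657 and 656 CPM without it, so it was lower without LIF although the median was 2.69. The guanylate-binding proteins form a family of similar copies, and reads may be divided among them.

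Most tested lysosomal genes fell, while a pair of endocytic receptors rose steeply. Of 25 tested members 15 fell and 7 rose, with a median of -0.48. Lrp2, megalin, was at 35 and 24.4 CPM with LIF and 1184 and 1473 CPM without it (log2 fold change 5.46 ± 0.11 SE, adjusted p = 6.41e-24), and its partner Cubn, cubilin, went from 0.706 and 0.588 to 57.5 and 62.7 CPM. Npc2, a cholesterol carrier, went from 647 and 606 to 244 and 248 CPM. Grn, progranulin, went from 293 and 285 to 123 and 124 CPM and Ctsc, cathepsin C (2 accessions), from 243 and 273 to 52.5 and 55.2 CPM.

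Amino acid and metal transporters were divided, with 6 of 20 tested members higher and 10 lower. The zinc importer Slc39a4 went down from 121 and 119 to 22 and 19.2 CPM and the taurine transporter Slc6a6 from 899 and 948 to 499.7 and 534 CPM. Slc16a10, a transporter of aromatic amino acids (2 accessions), went up from 14.3 and 16.2 to 30.6 and 30.4 CPM.

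Of the 12 steepest rises of all genes, 8 were in none of these lists. Ranked by log2 fold change with at least 50 CPM in the higher group and at least 4 reads in the lower, Fndc3c1 was first among the rises, at 0.265 and 0.588 CPM with LIF and 296 and 325 CPM without it (log2 fold change 9.54 ± 0.16 SE, adjusted p = 2.19e-25). Car4, a carbonic anhydrase on the cell surface, was at 0.971 and 0.471 CPM with LIF and 309 and 304 CPM without it, and Slc40a1, the iron exporter ferroportin, at 0.353 and 0.941 CPM with LIF and 216 and 210.1 CPM without it. Sema3e, a guidance cue, and Trim67, a ubiquitin ligase of the nervous system, had log2 fold changes of 8.09 and 8.27. The synaptotagmin Syt13 and the annexin Anxa3 had 8.23 and 7.61. In each of these the libraries with LIF held at most 1.32 CPM.

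Among the steepest falls, Spic, an ETS-family transcription factor, was at 101 and 111 CPM with LIF and 1.28 and 0.682 CPM without it (log2 fold change -6.64 ± 0.16 SE, adjusted p = 1.37e-22). Vwf, von Willebrand factor, went from 97.9 and 85.3 to 2.05 and 1.64 CPM and the water and glycerol channel Aqp3 from 333 and 307 to 9.22 and 7.77 CPM (log2 fold change -5.21 ± 0.09 SE, adjusted p = 2.91e-25). The peptide transporter Slc15a1, the myosin heavy chain gene Myh13 and Fam25c had log2 fold changes of -5.41, -5.52 and -5.22. All 12 falls taken by this rule held at most 9.22 CPM in the libraries without LIF. Lin28a, which binds RNA and keeps let-7 precursors from maturing, was among the 12 largest gains in CPM, from 87.5 and 81.8 to 1861 and 1795 CPM (log2 fold change 4.43 ± 0.06 SE, adjusted p = 9.36e-27).

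Genes outside the lists among the 12 largest gains or losses of CPM were of several kinds. The naive factor Tfcp2l1 fell from 3205 and 3152 to 91.4 and 100.5 CPM (log2 fold change -5.06 ± 0.06 SE, adjusted p = 4.95e-28). Ncl, the nucleolar protein nucleolin, rose from 5863 and 5352 to 7044 and 7434 CPM, and Fat1, a giant protocadherin, from 1043 and 843 to 1896 and 2245 CPM. Aars, the alanyl-tRNA synthetase, fell from 2478 and 2214 to 1035 and 1084 CPM and Eif2s2, a subunit of the initiation factor eIF2, from 1417 and 1540.0 to 546 and 527 CPM. Msh6, of DNA mismatch repair, fell from 1881 and 1788 to 884 and 979.6 CPM (log2 fold change -0.98 ± 0.05 SE, adjusted p = 9.85e-15). The groups did not overlap in any of these 6 genes, as in 81.5% of all tested genes.

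Genes with at most 3 reads over both libraries of a group and at least 5 CPM in the other were called switched. By this rule 79 genes were switched on (0.317% of 24921 counted genes) and 31 off (0.124%), with no test. In 27 of the 79 and 4 of the 31 the silent group held no read at all. Protein-coding genes were 77 of those switched on and 29 of those switched off. The numbers depend on how many reads the silent group could give: 145 genes were switched on without WT LIF replicate 1, and 74 were switched off without WT no-LIF replicate 1, since the same 3 reads then applied to the other library alone.

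Of the 15 genes switched on with most reads, several had 1 to 3 reads with LIF. F5, coagulation factor V, had 1 read with LIF and 597 without, and the ratio at equal depth was 621 (exact interval 111 to 24587). Such a ratio rests on 1 to 3 reads in a group, and its interval at 95% covers counting error only.

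Others had no read with LIF, so only a lower bound is measured. Cda, cytidine deaminase, had 0 reads with LIF and 290 without and was at least 101-fold higher, and Klhl14 at least 98.9-fold. The Wnt5a receptor gene Ror1 (2 accessions) had 2 reads with LIF and 293 without, and St8sia3, a sialyltransferase, had 2 reads with LIF and 381 without. Map7d3, a microtubule-binding protein, and Rasef, a small GTPase, had 3 reads each with LIF and 581 and 421 without.

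The genes switched off were of varied kind. Fgf3, an FGF ligand, had 155 reads with LIF and 3 without, and the ratio at equal depth was 49.6 (exact interval 16.7 to 243). Osr2, a zinc finger factor, had 167 reads with LIF and 2 without, and Tnfrsf8, the receptor CD30, had 174 reads with LIF and 2 without. Cnga4, a cyclic nucleotide channel subunit, Cd3g, a chain of the T cell receptor complex, Snx20 and Ffar3, a receptor of short-chain fatty acids, fell from 277, 279, 251 and 229 reads to 2, 3, 3 and 2. With a minimum of 20 CPM in the active group no gene was switched off and 9 were switched on.

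Markers of other cell types moved with the groups, and their part in the results above was not tested. The 7 fibroblast markers summed to 8.92 and 9.29 CPM with LIF and to 20.4 and 19.8 CPM without it; Dcn and Postn were at 0 reads in all 4 libraries but have 2 and 5 accessions, and Lum, with 1 accession, had 0 reads with LIF and 5 without. Col1a1 was at 1.94 and 2.59 CPM with LIF and 4.70 and 5.05 CPM without it. Col1a2 went from 0.530 and 0.823 to 6.66 and 7.09 CPM, and Col3a1 from 0 to 23 reads. Thy1 was not called, at 6.44 and 5.88 CPM with LIF and 7.51 and 6.27 CPM without it. 

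The 5 trophoblast markers summed to 2.56 and 2.12 CPM with LIF and 76.8 and 70.8 CPM without it, nearly all of it Krt7. Elf5 and Gata3 were at 0 reads but have 2 and 4 accessions, and Cdx2 was at 0.530 and 1.06 CPM with LIF and 2.73 and 1.5 CPM without it. The 6 markers of visceral endoderm summed to 1.24 and 0.706 CPM with LIF and to 60.5 and 66.0 CPM without it, nearly all of it Cubn. Afp, Ttr, Apoa1, Amn and Hnf4a (3 accessions) were at 1.62 CPM or less in each library.

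The 5 mesoderm markers summed to 1.85 and 3.65 CPM with LIF and 56.3 and 53.9 CPM without it. Of them T, brachyury of the primitive streak, was at 0.441 and 1.18 CPM with LIF and 25.5 and 26.2 CPM without it and Hand1 at 0.265 and 0.471 CPM with LIF and 23 and 19.9 CPM without it, while Mesp1 was at 0 reads. The 5 neural markers summed to 73.6 and 77.2 CPM with LIF and to 84.5 and 81.7 CPM without it. Of the 5 endothelial and blood markers only Cdh5 had reads, none with LIF and 7.60 and 8.86 CPM without it. Pecam1, Ptprc and Tek were at 0 but have 4, 3 and 3 accessions, and Hbb-bh1 was at 0 with 1.

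Lists of lineage genes moved in both directions. Of 28 listed neural genes 17 were tested, 11 rose and 3 fell. Sox3, a factor of the neural plate, went from 2.21 and 1.41 to 47.9 and 48.5 CPM. Grhl2, a factor of epithelial identity in the trophoblast and surface ectoderm list, went from 3.62 and 4.23 to 93.8 and 100.5 CPM, while its relative Grhl3 fell from 102 and 105 to 22.2 and 20.6 CPM. In the list of definitive endoderm and mesoderm 8 of 17 tested members rose and 7 fell, Gsc, goosecoid, from 21.9 and 20.8 to 1.45 and 1.64 CPM. Preimplantation genes fell in 11 of 17 tested cases and rose in 3, with a summed level of 0.396 times that with LIF, with Ooep, an oocyte-embryo protein, going from 153 and 146 to 15.2 and 15.5 CPM and Khdc3 (2 accessions) from 56.5 and 58.1 to 1.28 and 1.36 CPM.

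The lists of other tissues held few tested genes. Members near 0 reads with LIF could pass the filter only through a group where they were higher, which favours rises in these counts. In the trophoblast and surface ectoderm list 10 of 12 tested members of 24 listed rose and 2 fell. Simple keratins, which the intermediate filament list also holds, were among those that rose. In the list of visceral and parietal endoderm 5 of 8 tested members of 22 listed rose and 1 fell, and the named ones, Lamb1, Cubn and Apob, had log2 fold changes of 2.92, 6.48 and 5.56. In the fibroblast list 7 of 8 tested members of 18 listed rose and none fell, including Acta2, Mmp2, the mesenchymal factor Twist1 (1.52) and fibrillin 1, Fbn1 (1.43). Of the endothelial and blood list 4 of 18 were tested, 1 rose and 2 fell.

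The LIF response was then set against the response to 24 h of OCT4 degradation in the Oct4-Fkbp line, by a test of the difference of the 2 responses. The comparison asks which changes differ in size between the perturbations, but the line, the tag, the duration and the agent differ as well and cannot be told apart. The controls are separate libraries. The difference passed for 5671 genes (55.0%), 2725 with a higher and 2946 with a lower response to LIF withdrawal. Of the 7056 genes called after LIF withdrawal, 4929 (69.9%) also passed this test. In the genes called in both perturbations the direction was the same in 2142 and opposite in 1093.

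Single genes of the cytoskeleton, redox and STAT3 lists differed from their OCT4 response. For Tagln the log2 fold change was 8.55 after LIF withdrawal and -0.74 after OCT4 degradation (difference 9.30 ± 0.42 SE, adjusted p = 4.75e-16). For Cnn2 these values were 3.72 and -0.18 (difference 3.90 ± 0.13 SE, adjusted p = 1.49e-18). Of 40 tested actin genes 30 passed the test of the difference and 10 did not. The share that passed was 55.0% of all tested genes and 69.9% of those called after LIF withdrawal. As 90% of the tested actin genes were called after LIF withdrawal, the second share is the nearer background. Socs3 gave -3.21 and 0.36 (difference -3.57 ± 0.09 SE, adjusted p = 6.35e-21), and Gpx2 gave -4.41 and 1.93 (difference -6.34 ± 0.15 SE, adjusted p = 2.67e-21). The last pair are genes that fell after LIF withdrawal and had a positive log2 fold change after OCT4 degradation.

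Metabolic and matrix genes were divided in this respect. Dmgdh had a log2 fold change of -6.22 after LIF withdrawal and 0.75 after OCT4 degradation (difference -6.97 ± 0.22 SE, adjusted p = 2.75e-19). Idh2 had -2.01 and 0.23 (difference -2.23 ± 0.08 SE, adjusted p = 4.39e-18). By contrast Hk2 had -1.14 and -1.16 (difference 0.01 ± 0.09 SE, adjusted p = 0.921), and Lamb1 had 2.92 and 2.72 (difference 0.20 ± 0.12 SE, adjusted p = 0.163). Fgf4 and Il6st also missed the threshold, with differences of -0.03 ± 0.08 SE, adjusted p = 0.785 and of -0.01 ± 0.09 SE, adjusted p = 0.927. A difference that misses the threshold does not show that the responses were alike.

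Genes with opposite signs included signalling genes. Notch3 had 2.36 after LIF withdrawal and -1.06 after OCT4 degradation (difference 3.43 ± 0.10 SE, adjusted p = 9.06e-20). Lefty1 had 4.09 and -3.68 (difference 7.77 ± 0.24 SE, adjusted p = 1.96e-19). Sfrp1 fell in both, by 2.52 and 5.33 on the log2 scale (difference 2.82 ± 0.11 SE, adjusted p = 1.97e-17), so its fall was smaller after LIF withdrawal. Of 61 tested respiratory chain genes 35 passed the difference, near the 55.0% of all tested genes, and of 70 ribosomal protein genes 14 passed.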

How the data were processed

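RNA-seq libraries of V6.5 ES cells, 2 with LIF and 2 without it, were fitted together with 4 of the Oct4-Fkbp line. Each library has a table of raw counts, deposited by the authors with 1 line for each RefSeq accession. The submitters' processing notes name HISAT2 and HTSeq and the build mm9, with no settings. Summary lines were left out, and counts were summed over the accessions of each gene symbol. Of 41565 accessions, 41325 were named by the RefSeq table and 126 by a GENCODE table, and 114 kept their accession as name, which gave 24921 genes. Genes with 1 accession held 95.5% of reads. Reads that more than 1 accession could claim (42.2% to 43.0% of counted and ambiguous reads) are in no gene.

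Genes passing edgeR's default filter on low counts (10311) were fitted with TMM factors and a quasi-likelihood model of the 4 groups (edgeR 4.0.16, R 4.3.3), with Benjamini-Hochberg adjustment over all of them. The fit was tested on simulated counts. CPM are counts divided by the TMM-scaled library size. Members and lists were chosen with earlier results of these data known. Named genes are up to 8 members of a list with the smallest adjusted p, a mean of at least 5 CPM over the 4 libraries and groups that do not overlap. Also named are the 12 largest log2 fold changes each way (at least 50 CPM in the higher group and 4 reads in the lower), the 12 largest differences in CPM each way, the 15 genes with most reads among those switched on and off, uncalled regulators and cell type markers. Of these, 1 gene known only by its accession is not described, and some others are not reported here; any other gene was named after its value had been seen. Intervals and bounds cover counting error only. Replicate numbers are shared by the groups, but deviations of same-numbered libraries correlated by at most 0.05. No shared shift was seen, so the main fit holds no pairing, though this cannot show that same-numbered libraries were handled apart. Promoters are RefSeq sequences of GRCm38.p6, matched by symbol for 8050 of the tested genes; no coordinates of the deposited build were used. Alternatives were DESeq2 1.42.0, other scaling and filters, leaving out each library, the parental libraries alone, the replicate number as a block, and other treatments of accessions.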

Additional observations from a re-analysis of the deposited data

How the results depend on the processing

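Over 12 alternatives the number of genes that rose lay between 2861 and 3739 and of those that fell between 2879 and 3772. At 2-fold or more the ranges were 1113 to 2051 and 1191 to 1976. The lowest value, 1113 genes higher, came from a filter of 5 CPM in 2 libraries, which tests fewer genes. For the difference from the OCT4 response the ranges were 2400 to 2891 higher and 2276 to 3059 lower. Genes switched on were 168, and off 82, with up to 10 reads allowed in the silent group, and 9 and 0 with 20 CPM required in the active group; leaving out 1 library in turn gave 77 to 145 on and 31 to 74 off. With the replicate number as a block, 3518 genes rose and 3564 fell, 1705 and 1743 of them by 2-fold, and 2723 and 2967 passed the difference. No shift shared by same-numbered libraries was seen. Of 292 named genes, 2 lost their call under any alternative: Rpl13 without WT no-LIF replicate 2, and Rps18 without WT LIF replicate 1 and in DESeq2. None changed sign. Named genes were mostly chosen for a small adjusted p, groups that do not overlap or a large change. That choice favours kept calls and signs, so these counts say little about the other called genes. The share of all 7056 called genes that kept their call is not given. The medians of 5 lists changed sign under at least 1 alternative: regulators of DNA methylation, Polycomb genes, transporters, definitive endoderm and mesoderm, and endothelial and blood genes. Depth limits genes with several accessions and those switched on or off, where 1 to 3 reads set the ratio.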
